A study of Mus musculus with 12 samples.

Results

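Zfp469 and Col1a1 are the collagen-linked genes whose N6-methyladenosine (m6A) peaks are described here in mouse hippocampus at 2 and 6 weeks of age. Their members are the peaks of the 4 deposited lists that overlap a window set around each gene in the mouse build mm9, chromosome 8 from 124780000 to 124797000 for Zfp469 and chromosome 11 from 94797000 to 94815500 for Col1a1. Peaks of all lists that share at least 1 bp were merged into regions, which gave 24 regions for Zfp469 and 3 for Col1a1, 27 of the 70674 regions of the 4 lists. Each age, 2 weeks and 6 weeks, was represented by 2 m6A-IP libraries made from poly(A)+ RNA of the hippocampus of wild-type C57BL/6 males, with no treatment named in the labels. In m6A-IP, RNA fragments bound by an antibody against m6A (the IP) are sequenced, and a peak is a short stretch with more IP sequence tags than a control of unselected fragments. The labels number the libraries as biological replicates and do not name the animals. Of 12 samples in the series, the other 8 were not analysed here.

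m6A is written on messenger RNA by a methyltransferase complex with METTL3 as its catalytic subunit, mostly near stop codons and in long exons, and FTO and ALKBH5 can remove it. It affects how long a transcript lasts, how it is spliced and how well it is translated. Zfp469 encodes a large zinc finger protein; mutations of its human counterpart cause brittle cornea syndrome, a disease of thin, fragile connective tissue, and the protein is thought to act on the making or ordering of fibrillar collagens. Col1a1 encodes the alpha 1 chain of type I collagen, the main fibrillar collagen of skin, bone and tendon. In the brain, type I collagen is made mainly by fibroblasts of the meninges and around blood vessels.

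Both genes were chosen by their peak calls at each age, with more regions at 2 weeks, so calls and tags are given as a description, with no test; an exact two-sided test of 2 libraries against 2 cannot give a p under 0.333. The lists carry no gene names and no mm9 annotation or genome was used, so exon, coding part, UTR and sequence are not given for any peak, and the labelled tissue was not checked against marker genes. The depth behind the values was 23.0 to 23.4 M IP tags (M, mega) at 2 weeks and 16.1 to 16.5 M at 6 weeks. The controls held 29.3 and 16.8 M tags in 2-week replicates 1 and 2, and 15.8 and 11.7 M in 6-week replicates 1 and 2. Age cannot be told apart from IP depth or control depth by design. In bulk RNA, fewer cells of a type and less RNA per cell cannot be told apart either.

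The Zfp469 window held many weak peaks at 2 weeks and almost none at 6 weeks. There, 2-week replicate 1 had 24 peaks, 2-week replicate 2 had 16, 6-week replicate 1 had 1 and 6-week replicate 2 had 0. The peaks merged into 24 regions over 10.3 kb, from 124785151 to 124795425. Of these, 10 were called in both 2-week libraries and neither 6-week library, 0 in both 6-week libraries only and 0 in all 4. The shares over all regions of the genome were 6.41% at 2 weeks only, 1.92% at 6 weeks only and 14.4% in all 4, and nothing is read from the gene's counts beside them. A further 13 regions were called in a single library, as were 58.6% of all regions: 10 in 2-week replicate 1 and 3 in 2-week replicate 2. The remaining region was called in 3 libraries. Of regions called in at least 2 libraries, 10 of 11 in Zfp469 and 15.5% in the genome were called at 2 weeks only. With 2-week replicate 2 left out, 21 regions were called at 2 weeks only, since the list that remains needs no second call; the share over all regions was then 23.2%.

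**Figure D1:**
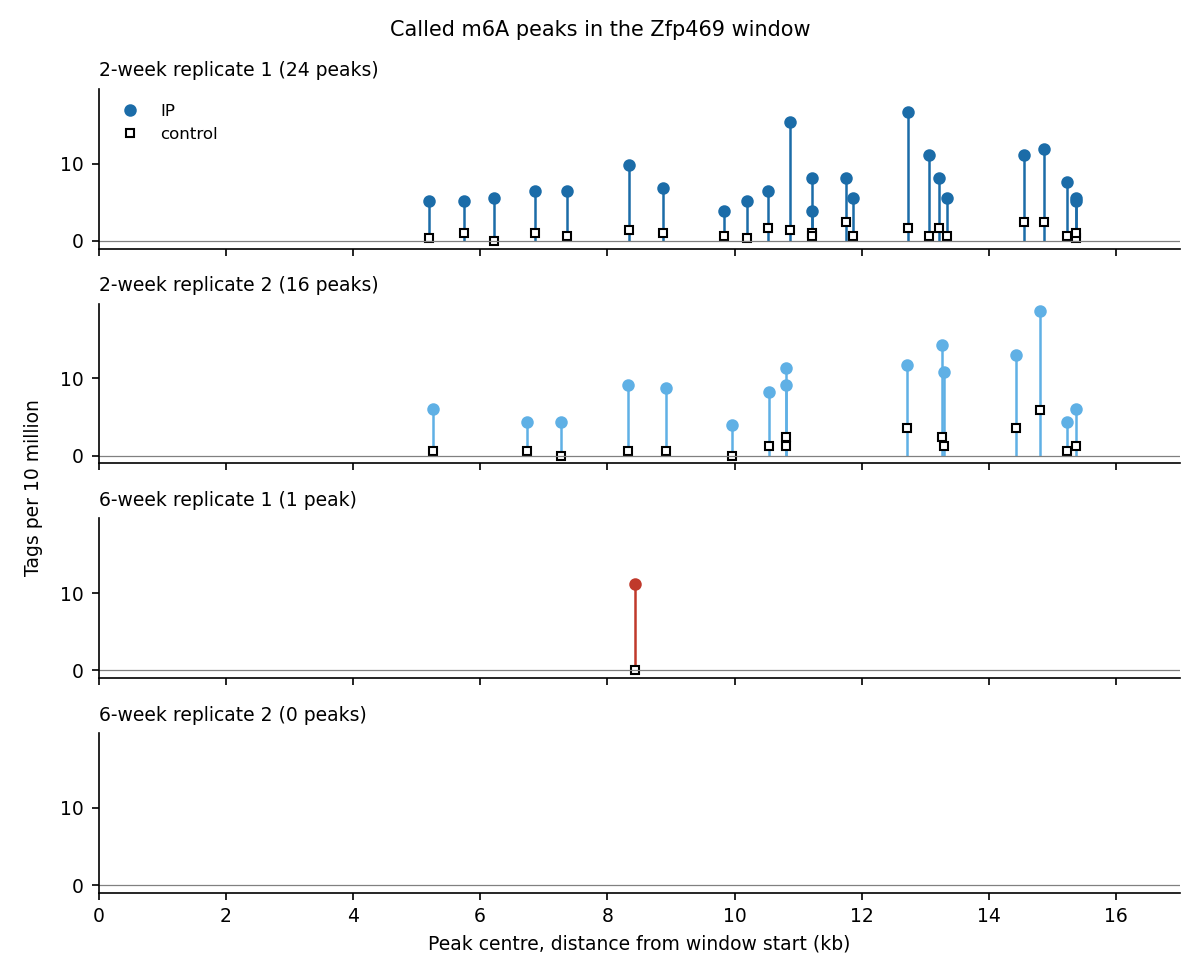
Each stem is a called peak in the Zfp469 window, at its distance from the window start in kb, with IP tags (filled circles) and control tags (open squares) per 10 M, 1 panel for each library. The 2-week libraries show 24 and 16 peaks, 6-week replicate 1 shows 1 and 6-week replicate 2 shows 0.

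The Zfp469 peaks of the 2-week libraries were low in tags, with a median fold over control at or above that of their lists. In 2-week replicate 1 a peak held 9 to 39 IP tags (median 15), and in 2-week replicate 2 it held 9 to 43 (median 20.5). Per 10 M tags the medians were 6.40 and 8.93, against 15.4 and 15.7 for all peaks of those lists. Control tags, which measure the RNA itself, had medians of 1.02 and 1.19 per 10 M, against 2.73 and 2.97 for all peaks, and 1 and 2 of the peaks had no control tag. The fold over control, a value of the authors' lists, had a median of 7.56 in replicate 1, where the whole list had 5.97, and of 7.33 in replicate 2, where the whole list also had 7.33. Single peaks lay on both sides of these medians, from 3.40 to 32.5 in replicate 1 and from 3.15 to 15.4 in replicate 2. The peaks covered 2200 bp and 1438 bp, with means of 18 and 20.8 IP tags per peak. The replicates differed in how many peaks were called and, more by the medians than by the means, in the tags of each. In 2-week replicate 1, 2 of the peaks repeated the printed start of another, with other tag counts. Peaks were merged by position alone and strand was not read, so peaks set side by side in a region may differ in strand.

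The Zfp469 regions called at 2 weeks only were spread along the stretch with peaks, their starts 146 to 2069 bp apart (median 1596 bp). Numbered along the window, the region with the most IP tags was region 22, from 124794759 to 124794923. It held 11.9 IP tags per 10 M in replicate 1 and 18.7 in replicate 2, a mean of 15.3 ± 4.79 (SD, n = 2), and its control mean was 4.16 ± 2.51. Its fold over control was 5 and 3.15, the latter close to the minimum of 3 in the lists.

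Region 17, from 124792669 to 124792779, held 16.6 and 11.8 IP tags per 10 M in replicates 1 and 2. Region 13, from 124790752 to 124790919, held 15.4 and 11.3. Region 19, from 124793163 to 124793391, held 8.11 and 14.4, the widest relative gap between replicates of the 10 regions. In 2 of these 3 regions replicate 1 was the higher library, so the replicates did not order the regions in the same way.

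The remaining 6 regions held fewer tags. Region 8, from 124788832 to 124788968, held 6.83 and 8.71 IP tags per 10 M, and region 12, from 124790478 to 124790590, held 6.40 and 8.28. Region 23, from 124795179 to 124795284, held 7.68 and 4.36, and region 24, from 124795325 to 124795425, held 5.55 and 6.10. Region 1, from 124785151 to 124785301, held 5.12 and 6.10, and region 6, from 124787220 to 124787417, held 6.40 and 4.36. Their 12 values lay between 4.36 and 8.71, and none of these regions reached a mean of 8.

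On the means of the 2 replicates, the 4 Zfp469 regions with the most IP tags also had the most control tags. In the 4 regions with means over 10 IP tags per 10 M, a level chosen after the values were seen, control means ran from 1.87 to 4.16. In the other 6 they ran from 0.341 to 1.45, so the control means of the groups did not overlap. In replicate 1 alone the control values did overlap. There region 12, of the 6, held 1.71 per 10 M (5 tags) and region 13, of the 4, held 1.36 (4 tags). In replicate 2 they did not overlap. The folds of single peaks overlapped, at 3.15 to 11.3 in the 4 regions and 3.75 to 16.3 in the 6. All 4 lay between 10.8 and 14.9 kb from the window start, in the later part of the stretch with peaks. The fold and p limits of the lists allow few control tags where IP tags are few, so this order is in part set by the calling, and nothing more is read from it. Replicate 2 had the higher IP value in 6 of the 10 regions, with ratios of replicate 2 to replicate 1 from 0.567 to 1.77. Across these 10 regions the IP values of the replicates had a Pearson r of 0.584 and a Spearman rho of 0.682; the regions share their libraries and RNA, and the values rest on 10 to 43 tags.

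**Figure D2:**
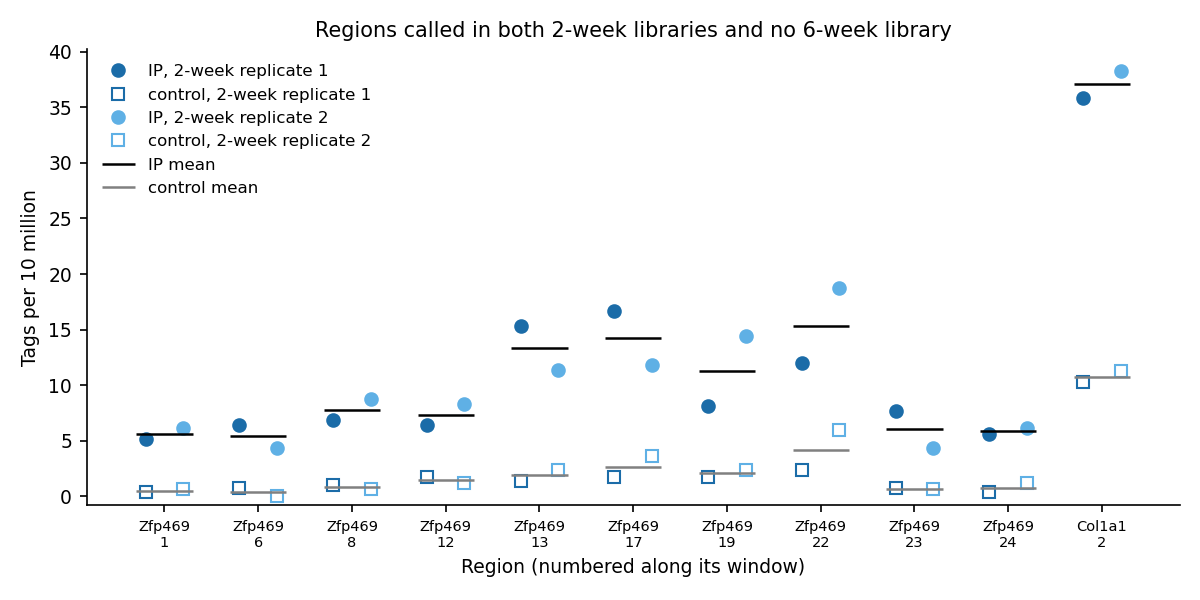
Tags per 10 M in each region called in both 2-week libraries and no 6-week library, with filled circles for IP, open squares for control and bars for the means of the 2 replicates. The 10 Zfp469 regions have IP means from 5.38 to 15.3, and the Col1a1 region has 37.1.

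A single Zfp469 region was also called at 6 weeks. Region 7, from 124788272 to 124788486, held 9.81 and 9.15 IP tags per 10 M in the 2-week libraries (23 and 21 tags) and 11.2 in 6-week replicate 1 (18 tags). Its control held 4 and 1 tags at 2 weeks and 0 in 6-week replicate 1, where the deposited fold was 35.2. The 6-week value, on 18 tags, lay above both 2-week values, and 6-week replicate 2 had no peak there. The 6-week peak shared only 1 bp with the peak of 2-week replicate 1 and lay 14 bp from that of 2-week replicate 2, while the 2-week peaks shared 85 bp with each other. Among the 10 regions called at 2 weeks only, the strongest peaks of the replicates shared 34 to 100 bp, except in region 6, where they shared 3 bp.

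Several Zfp469 regions called in a single library lay next to a region of the other 2-week library. Region 20 of replicate 2 and region 21 of replicate 1 were 18 bp apart, regions 4 and 5 were 22 bp apart, and regions 9 and 10 were 39 bp apart. When peaks within 200 bp were joined, the gene had 10 regions called at 2 weeks only among 15 regions. The share over all regions was then 6.62%. These were not the same 10 regions. Regions 12 and 13 were joined, as were 23 and 24, while regions 4 and 5, and 9 to 11, came to count as called at 2 weeks only. The strongest regions called in a single library were region 20, with 13.1 IP tags per 10 M, and regions 18 and 21, with 11.1 each.

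Col1a1 had 1 region called at 2 weeks only, and it held more IP and more control tags than any of those of Zfp469. Region 2 of its window, from 94813005 to 94813108, held 35.8 IP tags per 10 M in 2-week replicate 1 (84 tags) and 38.3 in replicate 2 (88 tags), a mean of 37.1 ± 1.76 (SD, n = 2). Its control held 10.2 and 11.3 tags per 10 M (30 and 19 tags), a mean of 10.8 ± 0.745. The replicates lay close together in both measures, and their peak starts were 3 bp apart. In those lists 68.4% and 69.3% of all peaks had fewer IP tags than this one, and 10.9% and 7.41% had a lower fold. The fold was 3.50 and 3.40, both close to the minimum of 3, and at a minimum of 4 the region was in neither list.

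The other Col1a1 regions were called in 1 library each. Region 3, from 94813298 to 94813398, was called in 2-week replicate 2 with 7.40 IP tags per 10 M (17 tags) over 1 control tag, at 12.5-fold. Region 1, from 94812836 to 94812936, was called in 6-week replicate 1 with 9.30 IP tags per 10 M (15 tags) over 3 control tags, or 1.90 per 10 M, at 4.89-fold. This 6-week peak ended 69 bp before the peak of 2-week replicate 1 and 72 bp before that of replicate 2. It held fewer tags than region 2 did at 2 weeks, over other bases. Joined within 200 bp, the 3 regions became 1, called in 3 libraries, and the count of Col1a1 regions at 2 weeks only fell from 1 to 0. All peaks lay between 15.8 kb and the end of the 18.5 kb window, and the rest of the window had none.

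**Figure D3:**
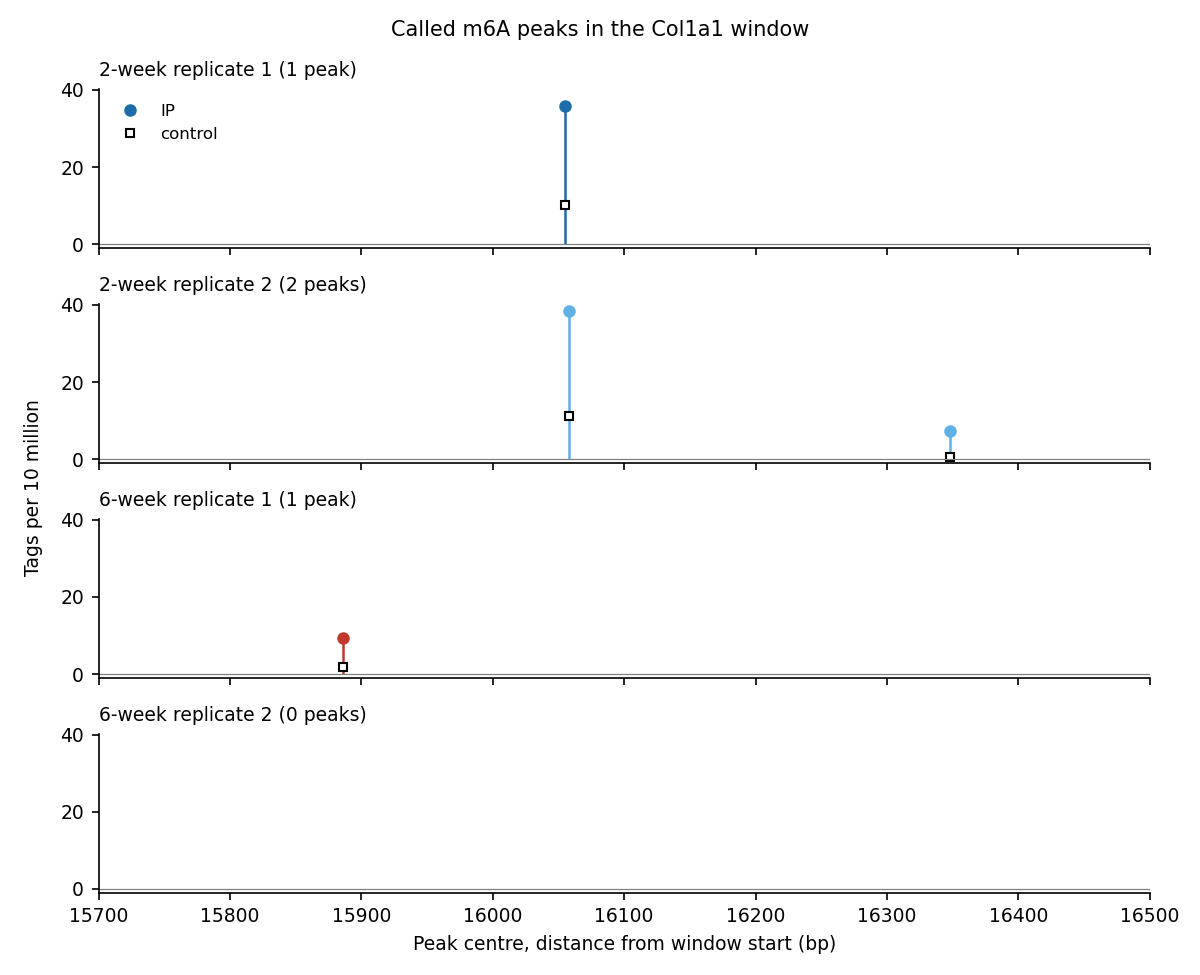
Each stem is a called peak near the end of the Col1a1 window, at its distance from the window start in bp, with IP tags (filled circles) and control tags (open squares) per 10 M. Both 2-week libraries have a peak above 35 IP tags at nearly the same place, and 6-week replicate 1 has 1 peak of 9.30 IP tags that ends 69 bp before it.

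A list gives control tags only at its own peaks, so the RNA level of Zfp469 and Col1a1 at 6 weeks was not analysed here where no peak was called. Whether less RNA, less m6A on the RNA or the calling limits go with the missing 6-week calls was not tested. The tags that the 2-week peaks would hold at the lower depth were computed. At the depth of the 6-week libraries the 2-week peaks would hold 0.688 to 0.719 of their tags. The smallest peak of 6-week replicate 1 held 7 IP tags and that of replicate 2 held 9, with medians of 38 and 30.

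The main Col1a1 peaks would hold 57.8 and 61.8 IP tags at the depth of 6-week replicate 1 and 59.2 and 63.3 at that of replicate 2, above the medians of both lists. With their control scaled in the same way they would also meet the lists' p limit. Scaling leaves a fold unchanged where the control stays at 0.5 tag or more, so these peaks met the 3-fold minimum in advance. The Zfp469 peaks would hold medians of 10.3 and 14.4 tags at the depth of 6-week replicate 1 and 10.6 and 14.7 at that of replicate 2. The 5th percentile of IP tags was 14 in the list of 6-week replicate 1 and 10 in that of replicate 2. Of the 24 Zfp469 peaks of 2-week replicate 1, 6 would reach the former and 14 the latter. Of the 16 of 2-week replicate 2, 9 and 12 would. Of the 10 Zfp469 regions called at 2 weeks only, 7 would reach the smallest IP count of both lists from both 2-week libraries. With the fold and p limits applied too, a step chosen after the data were seen, the outcome depended on which 2-week library gave the tags. Here the fold limit could exclude only peaks whose scaled control fell under 0.5 tag. From 2-week replicates 1 and 2, 9 and 8 of the 10 would pass the limits of 6-week replicate 1, and 7 would pass from both. For 6-week replicate 2, 6 would pass from replicate 1 and 6 from replicate 2, but only regions 13 and 22 from both. These products carry no counting error, come from peaks that had been called at 2 weeks, and the part of depth in the missing calls was not tested.

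**Figure D4:**
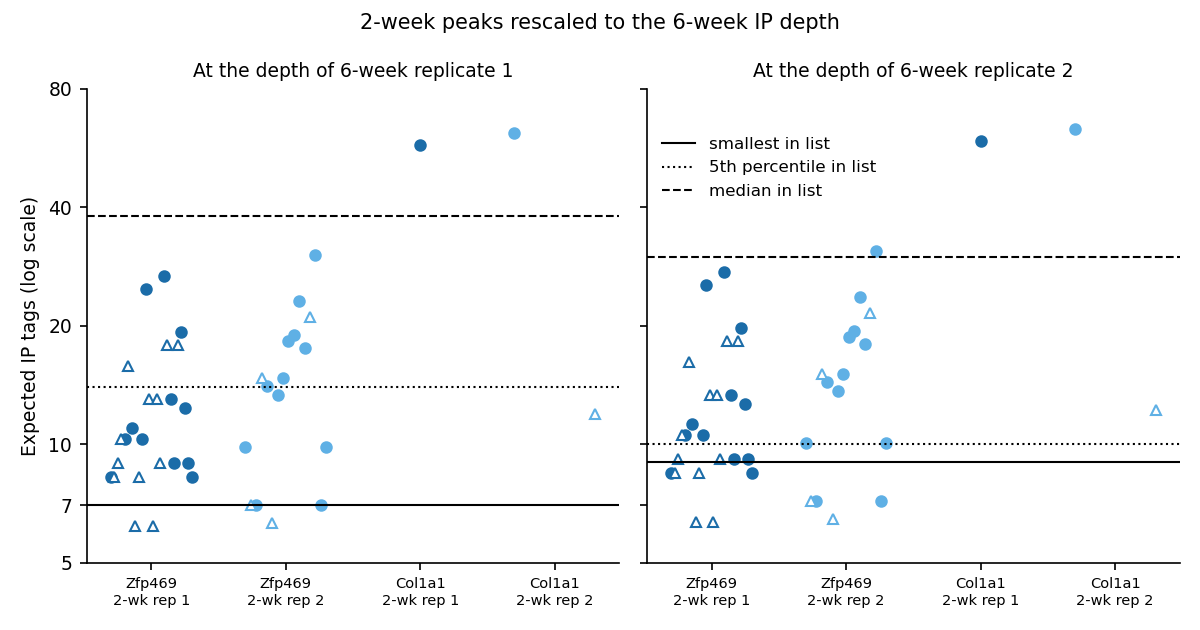
IP tags that each 2-week peak would hold at the depth of each 6-week library, on a log scale, with filled circles for regions called at 2 weeks only and open triangles for the others. Lines mark the smallest, 5th percentile and median IP tags of the 6-week list; the main Col1a1 peaks lie above the medians of 38 and 30, and the Zfp469 peaks mostly between the smallest value and the median.

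The surroundings of both windows held peaks at both ages. The nearest regions outside lay 117 kb before and 62.5 kb after the Zfp469 window, the former called at 2 weeks only and the latter in all 4 libraries, and 23.6 kb before and 36.9 kb after the Col1a1 window, each called in a single library. In the 100 kb before the Zfp469 window there was no region. In the 100 kb after it there were 6, 2 of them present in every list and 0 at 2 weeks only. Over all regions of the genome, 14.4% were called in all 4 libraries and 6.41% at 2 weeks only. From so few regions nothing is read, here or around Col1a1. The nearer of the shared regions, from 124859534 to 124859700, held 136 and 194 IP tags per 10 M at 2 weeks and 172 and 142 at 6 weeks, so the ages overlapped. The other, from 124860987 to 124861170, held 69.6 and 54.4 at 2 weeks and 70.1 and 40.6 at 6 weeks, again with overlap. Around Col1a1, 1 region lay before the window and 9 after it, with 2 called in all 4 libraries and 0 at 2 weeks only. The first of these, from 94853974 to 94854107, held 6076 and 5631 IP tags per 10 M at 2 weeks and 14527 and 3819 at 6 weeks, with the 6-week libraries on either side of the 2-week ones. The second, from 94906192 to 94906428, held 64.9 and 113 at 2 weeks and 35.3 and 20.6 at 6 weeks in the strongest peak of each library; here both 6-week values were lower, and the region was still called. In the RefSeq gene order of build GRCm38.p6, Zfp469 lies between Banp and Zfpm1 and Col1a1 between Gm11544 and Sgca; no peak outside the windows was assigned to a gene.

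**Figure D5:**
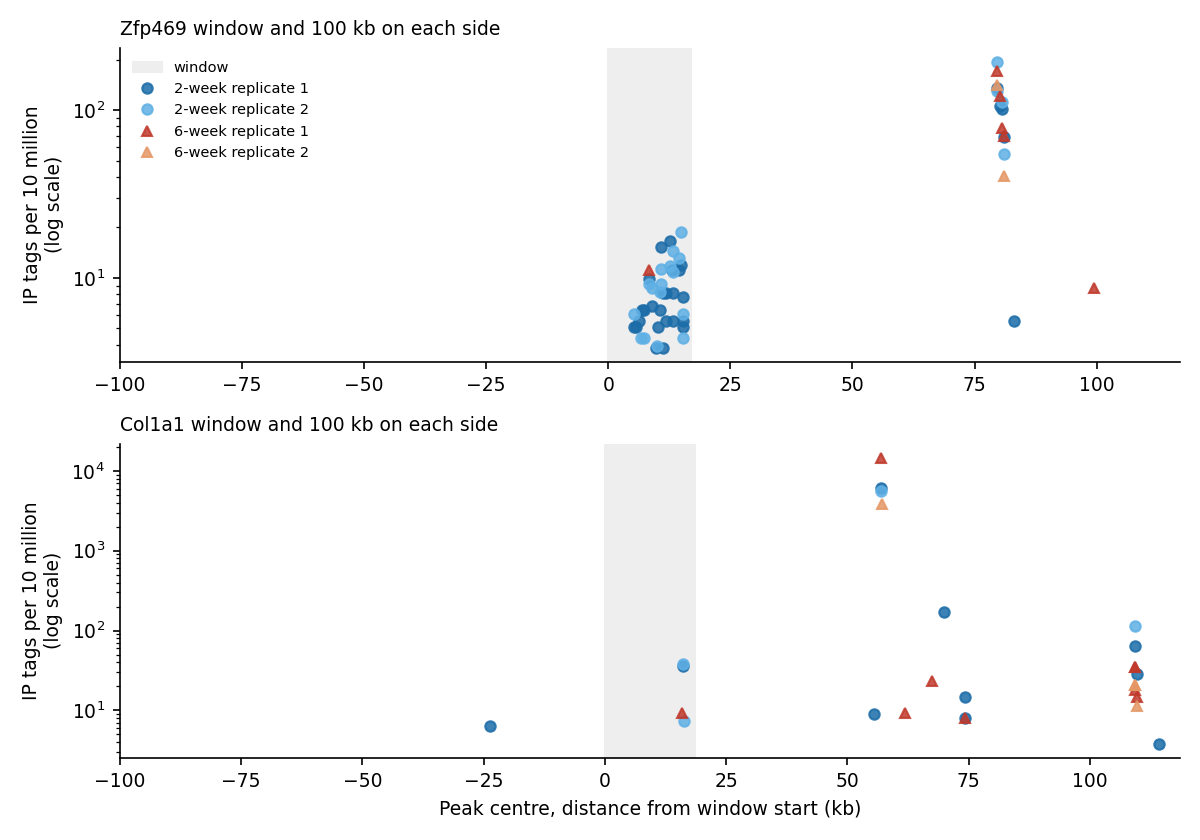
IP tags per 10 M (log scale) of all called peaks in each window (grey) and in the 100 kb on both sides, with circles for 2-week and triangles for 6-week libraries. Of the 6-week libraries only replicate 1 has a peak in the windows, 1 in each. After each window both 6-week libraries have peaks at 2 shared regions, and further 6-week peaks lie at other regions.

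To find stretches most like Zfp469, neighbouring regions were grouped into a locus wherever the gap between them was under 10000 bp. Among the 17651 loci with no region called at 6 weeks only and none called in all 4 libraries, Zfp469 had the second highest number called at 2 weeks only, 10 of 24. The gene was chosen by these same calls, so its rank is a description only. A locus on chromosome Y from 2850272 to 2902498 had 12, but of 126 regions, and the lists of 6-week replicates 1 and 2 had 1 and 45 peaks there. Chromosome 7 from 142876490 to 142899865 had 8 of 24, with 0 and 3 peaks at 6 weeks. Chromosome X from 121299886 to 121365232 had 8 of 38 and from 120144916 to 120189610 had 6 of 47, with 3 and 1 peaks in 6-week replicate 2 and 0 in replicate 1. Chromosome 1 from 191466289 to 191481959 had 6 of 11 and no 6-week peak. Zfp469 spanned the shortest stretch of the 6 loci, 10.3 kb against 15.7 to 65.3 kb. Its 24 regions were not the most closely packed, since the chromosome Y locus held 126 in 52.2 kb. The region counts of Col1a1 were shared with other loci: 1828 of the 17651 had exactly 1 region called at 2 weeks only, and 290 of those had 3 regions in all. The libraries in which their other regions were called were not compared.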

How the data were processed

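Per the submitters' processing notes, HOMER, Cufflinks 2.2.1, Bowtie2 2.2.3 and TopHat2 (2.0.13, 2.1.1) were used with build mm9, with no role given. Per the file headers the lists come from HOMER's peak caller, 1 list per library; which options and control library it ran with is not given in the sources used here. The deposited IP tags are whole counts in 2-week replicate 1 and a scaled signal in the other lists. Tags were recovered by dividing by the value of 1 tag and came out whole within 0.2 tag; a control of 0.5 tag was set to 0. Depth assumes that the deposited signal is scaled to 10 M tags (M, mega). The deposited fold ratio, p-value, score and focus ratio (a fraction) are the authors' values and only describe or filter peaks. Deposited p-values above 1e-200 (94.4% to 99.3% of each list) were compared with a Poisson tail, and 93.6% to 99.8% of them fell within 0.1 log10 units.

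A region was called at one age only if both libraries of that age and neither of the other had a peak in it. Regions are numbered along their window, and where a library had several peaks in a region, the one with most IP tags is given. Every region of the windows is accounted for; the other loci named are the 5 with the most regions called at 2 weeks only, none at 6 weeks only and none in all 4. The members and lists were chosen with earlier results of these data known. No member was called in all 4 libraries, so the planned fit of tags across regions was not made. Collagen and cell type lists were not used, since the files pair no peaks with genes. Merging and tag recovery were tested on simulated data. Computations used scipy 1.17.1, pandas 2.3.3, matplotlib 3.10.9 and numpy 2.4.6 in Python 3.11.15.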

Additional observations from a re-analysis of the deposited data

How the results depend on the processing

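Zfp469 had 8 to 10 regions called at 2 weeks only with at least 50 bp shared, peaks within 200 bp joined, repeated starts removed, windows widened by 5 kb or lists of equal length, 7 at 4-fold or more and 3 at 8-fold or more. Col1a1 had 1 under the same settings, except 0 when peaks within 200 bp were joined and 0 at 4-fold or 8-fold or more. Over all regions the share at 2 weeks only was 4.80% to 6.62% under these settings. Fewer peaks enter at a higher fold by construction. Leaving out 1 library gave 10 to 21 for Zfp469 (21 without 2-week replicate 2) and 1 to 2 for Col1a1 (2 without 2-week replicate 1), where the shares over all regions were 23.2% and 23.8%, and 11.6% and 12.6% without a 6-week library. Regions called at 6 weeks only stayed at 0 in both genes under these settings, but Col1a1 had 0 to 1 with 1 library left out (1 without 6-week replicate 2, where 20.6% of all regions were called at 6 weeks only). With tags in peaks as library totals, the mean of the Col1a1 peak moved from 37.1 to 34.5 IP tags per 10 M; at 4-fold or more it has no value. By the smallest IP count alone, 7 Zfp469 regions would reach both 6-week lists with the tags of each 2-week library. With the fold and p limits, which were applied after the data had been seen, 2 would. No paired analysis was possible because the results come from no test. The tag fit and its other settings were not run, since no region of either gene was called in all 4 libraries.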
